A study of Homo sapiens with 6 samples.

Results

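The 10 genes CD28, ICOS, CD27, CD40LG, TNFRSF4, TNFRSF9, TNFRSF18, TFRC, CD38 and CD44 encode costimulatory receptors and activation antigens of T cells. They were chosen by name out of 39012 rows of the deposited table, and each had a single row. No measured value entered the choice, but earlier results of these data were known when it was made. RNA-seq had been made from 6 libraries of Jurkat cells, an established human line from a T cell acute lymphoblastic leukaemia. The EV group of 3 libraries was the empty-vector control, and the SCML4 group of 3 libraries came from cells with stable overexpression of SCML4, a Scm-like Polycomb family protein. All 6 cultures had received 100 ng/ml PMA together with 1 µM ionomycin for 6 h, so that there was no unstimulated sample and induction by the stimulus could not be measured. The labels do not give the vector, its promoter, whether the SCML4 line was a clone, or whether the 3 libraries of each group were grown as separate cultures. P-values therefore rest on the spread among these libraries alone, and that spread may be technical. SCML4 excess cannot be told apart from any other difference between the lines.

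A T cell needs a signal from its antigen receptor and a costimulatory signal to respond in full. CD28 and ICOS are paralogous immunoglobulin-fold receptors that bind B7 family ligands and recruit phosphoinositide 3-kinase. CD27, TNFRSF4 (OX40), TNFRSF9 (4-1BB) and TNFRSF18 (GITR) belong to the TNF receptor superfamily and signal through TRAF adaptors to NF-κB, and CD40LG is the TNF-family ligand that T cells show to CD40 on B cells and dendritic cells. TFRC, CD38 and CD44 are activation antigens: the transferrin receptor takes up iron, CD38 hydrolyses NAD, and CD44 binds hyaluronan. PMA activates protein kinase C and ionomycin raises calcium, which together drive the factors AP-1, NF-κB and NFAT.

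Promoter sequences are shown for the members with the most reads, TFRC and CD28, and those with the fewest, TNFRSF9 and CD44. Each is the 250 bases before the transcription start in the RefSeq table, 5′ to 3′ on the strand of the gene, and capitals mark matches on either strand to the 3 motifs described after the sequences.
TFRC promoter, GRCh38.p14 chr3:196082091-196082340, minus strand: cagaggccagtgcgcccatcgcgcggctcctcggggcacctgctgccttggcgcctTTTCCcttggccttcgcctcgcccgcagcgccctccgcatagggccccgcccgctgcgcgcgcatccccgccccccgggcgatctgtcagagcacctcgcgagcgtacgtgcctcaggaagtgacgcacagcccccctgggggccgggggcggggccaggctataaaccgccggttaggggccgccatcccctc
CD28 promoter, GRCh38.p14 chr2:203706389-203706638, plus strand: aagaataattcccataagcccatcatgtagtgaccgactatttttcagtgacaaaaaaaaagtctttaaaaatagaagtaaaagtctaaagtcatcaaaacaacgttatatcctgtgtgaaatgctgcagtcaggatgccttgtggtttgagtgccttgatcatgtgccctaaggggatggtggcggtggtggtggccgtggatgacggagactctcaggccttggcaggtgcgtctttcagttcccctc
TNFRSF9 promoter, GRCh38.p14 chr1:7940840-7941089, minus strand: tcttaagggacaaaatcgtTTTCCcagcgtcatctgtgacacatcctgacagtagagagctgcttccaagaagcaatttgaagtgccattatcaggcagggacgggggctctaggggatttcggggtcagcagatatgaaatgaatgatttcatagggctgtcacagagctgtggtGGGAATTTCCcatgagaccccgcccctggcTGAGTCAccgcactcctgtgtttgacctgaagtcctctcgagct
CD44 promoter, GRCh38.p14 chr11:35138921-35139170, plus strand: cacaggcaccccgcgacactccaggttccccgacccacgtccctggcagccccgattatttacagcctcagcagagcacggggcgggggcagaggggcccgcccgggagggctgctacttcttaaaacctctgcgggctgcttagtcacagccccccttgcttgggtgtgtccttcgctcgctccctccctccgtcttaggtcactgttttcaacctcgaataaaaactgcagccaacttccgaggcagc

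The motifs searched were the NFAT core GGAAA, the AP-1 motif TGANTCA and the NF-κB motif, GGGA followed by any base and TTTCC, each on both strands, and a TTTCC inside the NF-κB match counts for both. Among 27305 promoter windows of the same 250 bases, 56.0% held the NFAT core, 6.60% the AP-1 motif and 0.546% the NF-κB motif. Windows were available for 8 of the 10 members (not CD40LG and TNFRSF4). Of these 8, the NFAT core was in 6, the AP-1 motif in 2 (TNFRSF9 and CD27) and the NF-κB motif in 1 (TNFRSF9). TNFRSF9, whose window was the only one among these 8 with all 3 motifs, had 1 read in 6 libraries, the smallest number that its deposited values allow. The TFRC window was the richest of the 8 in CpG, with 29 CpG dinucleotides and a GC content of 74.4%, against 6 and 45.2% in CD28. A match to letters is a description and shows no binding.

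Levels are given as recovered reads and as CPM, reads per 1000000 reads of the library, because the gene lengths behind the deposited FPKM are not those of the named genes. Libraries held 8953671 to 10336597 reads, and 0 reads leave room for a level of 0.290 to 0.335 CPM (3 reads), counting error alone considered. The overexpressed gene was checked first: SCML4 had 1 to 7 reads in the EV libraries and 506 to 657 in the SCML4 libraries. It was the 1 gene of 14160 tested, or 0.00706%, with an adjusted p under 0.05 in limma-trend (1.64e-09). All 12 T cell markers and all 5 markers of T cell leukaemia reached a mean of 10 reads, and T cell markers, CD28 among them, summed to 3590 to 3891 CPM in EV and 3956 to 4095 in SCML4. None of 6 myeloid, 4 NK cell and 5 erythroid markers did. CD79A was the 1 of 5 B cell markers to do so, at 207 to 338 reads, with PAX5 at 0. COL1A1, at 13 to 24 reads, was the 1 of 6 epithelial or fibroblast markers, and the other 5 were at 0. EV replicate 1 stood apart on the first principal component, at -24.8 against 2.10 to 7.20 for the other libraries. Its deviation per gene followed GC content, with a Spearman coefficient of -0.60 across 11389 genes, which are not independent, against 0.07 to 0.33 in the others.

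Of the 10 members, 3 transcripts were abundant, 4 were low and 3 were close to 0 reads. Per kilobase of annotated exons, on GENCODE 29, TFRC averaged 84.2 CPM per kb over the 6 libraries, CD28 63.7 and CD38 23.0. These lay at percentiles 97.5, 96.4 and 85.9 of the 23595 genes with at least 1 read and a known length. CD40LG followed at 7.49 CPM per kb, then TNFRSF4 at 5.43, CD27 at 1.60 and ICOS at 0.897. TNFRSF18 stood at 0.0785, CD44 at 0.00587 and TNFRSF9 at 0.00290. Neighbours in this order overlapped across libraries for TFRC and CD28 (65.3 to 93.4 and 56.3 to 68.5 CPM per kb), for CD40LG and TNFRSF4 (5.46 to 8.80 and 4.28 to 7.35), and for CD27 and ICOS (0.543 to 2.08 and 0.676 to 1.02). CD28 and CD38, CD38 and CD40LG, and TNFRSF4 and CD27 did not overlap. Within a library, TFRC was 1.00 to 1.59 times CD28 per kb. In the same way CD40LG lay above TNFRSF4 in every library, and CD27 lay above ICOS in every library but EV replicate 1. In bulk RNA, fewer cells that carry a transcript and less of it per cell cannot be told apart.

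**Figure D1:**
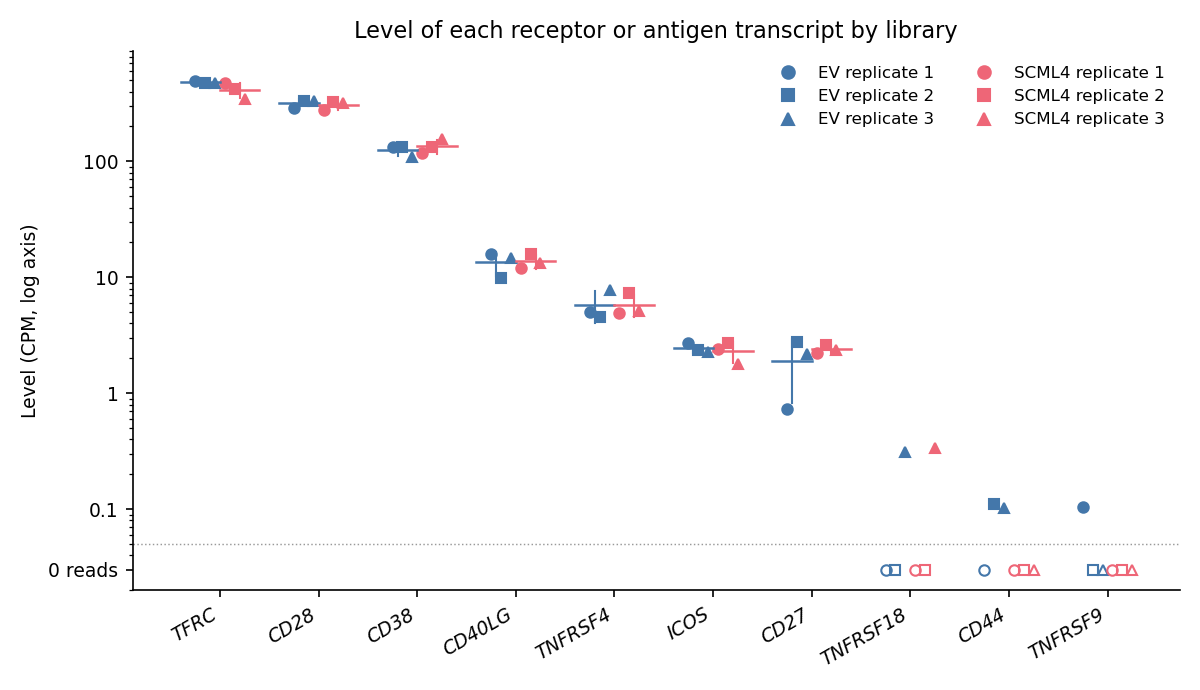
CPM (log axis) of each of the 10 transcripts in each library, blue for EV and red for SCML4, with bars at the group mean ± SD for the 7 tested transcripts and open symbols for 0 reads. TFRC, CD28 and CD38 sit above 100 CPM in every library, while TNFRSF18, CD44 and TNFRSF9 have 0 reads in most.

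Between EV and SCML4 none of the 7 members that passed the filter of 10 reads on average was called. The other 3, TNFRSF9, TNFRSF18 and CD44, were too low to test. Differences below are SCML4 minus EV on log2(CPM + 1), from limma-trend fitted on all 14160 genes, and adjusted p-values are over all of them by the Benjamini-Hochberg method. At an unadjusted p under 0.05 there was 1 of the 7, TFRC, where 5.27% of all genes fell under that value. Of the 7 differences 4 were positive and 3 negative, with a median of 0.01, equal to the median of 0.01 over all genes tested. The groups did not overlap in 1 member, again TFRC, against 11.6% of all genes. Intervals of 95%, not adjusted for the number of genes, reached from 0.18 to 0.60 in log2 to either side of the difference. These widths are not detection limits of the adjusted test, since TFRC, whose interval excluded 0, was not called.

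**Figure D2:**
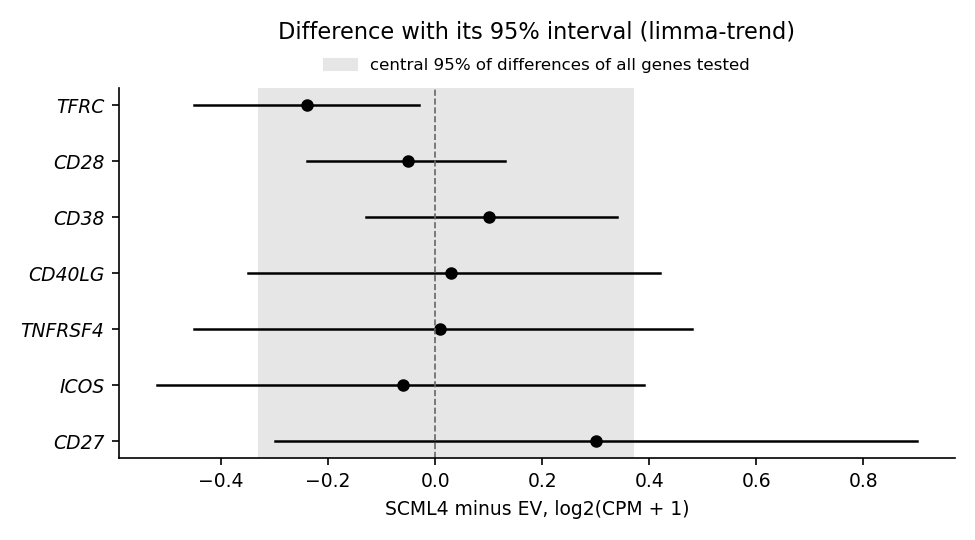
Difference SCML4 minus EV on log2(CPM + 1), as points, with the 95% interval from limma-trend as lines, for the 7 tested transcripts, and the central 95% of all genes (-0.33 to 0.37) as a grey band. The interval of TFRC, from -0.45 to -0.03, is the one that does not cross 0, and its adjusted p is 0.866.

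CD28, the main costimulatory receptor of naive T cells, was abundant in both groups. The EV libraries held 2765, 3002 and 3184 of its reads and the SCML4 libraries 2491, 3350 and 2844. In CPM these were 287, 335 and 329 against 275, 324 and 318. The lowest library of each group, EV replicate 1 and SCML4 replicate 1, lay below the other 4, and the groups overlapped. Means were 317 ± 26.0 CPM in EV and 306 ± 26.8 in SCML4 (SD, n = 3 each), a log2 difference of -0.05 with a 95% interval of -0.24 to 0.13 and an adjusted limma-trend p of 0.946. In fold terms on that scale the interval runs from 0.846 to 1.10. The spread within groups was 21.1 times the variance that counting alone gives, so that depth was not what limited this value.

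ICOS, the inducible paralogue of CD28, was about 2 orders of magnitude lower in reads. The EV libraries had 26, 21 and 22 reads and the SCML4 libraries 22, 28 and 16, or 2.70, 2.34 and 2.27 CPM against 2.43, 2.71 and 1.79. SCML4 replicate 3 was the lowest of the 6 and the groups overlapped. The difference was -0.06 with a 95% interval of -0.52 to 0.39 and an adjusted limma-trend p of 0.972. With 0.1 CPM in place of 1 CPM added before the log, it was -0.09 with a wider interval, -0.74 to 0.55. Here the spread within groups was 0.555 of the counting variance, so that the number of reads set the precision. Between 106 and 178 CD28 reads were found per ICOS read in the 6 libraries. In the RefSeq gene order on chromosome 2, both genes flank CTLA4, the inhibitory member of the family.

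CD27, a TNF receptor family member of naive and memory T cells, showed the largest difference of the 7, and it rested on a single library. The EV libraries held 7, 25 and 21 reads and the SCML4 libraries 20, 27 and 21, or 0.727, 2.79 and 2.17 CPM against 2.21, 2.61 and 2.35. EV replicate 1 was at 33.9% of the mean of the 6 libraries and the other 5 lay between 101% and 130%. The difference was 0.30 with a 95% interval of -0.30 to 0.90 and an adjusted limma-trend p of 0.906, and without EV replicate 1 it was -0.03. At this level the 1 CPM added before the log narrows the difference and its interval. With 0.1 CPM added instead, the CD27 difference was 0.50 with a 95% interval of -0.43 to 1.43. CD27 RNA has a GC content of 58.6%, and deviations in EV replicate 1 were negatively related to GC content over all genes. After a correction for GC content and exonic length the CD27 difference was 0.21, and the part of GC content in the low value of that library was not tested further.

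Reads named CD27 were fewer in every library than those named CD27-AS1, a noncoding gene on the opposite strand that shares 287 exonic bases with it in GENCODE 29. For CD27-AS1 the EV libraries held 105, 119 and 115 and the SCML4 libraries 118, 154 and 141. That is 15.0 CD27-AS1 reads per CD27 read in EV replicate 1 and 4.76 to 6.71 in the others. Whether the counting used strand is not given in the sources used here, so reads of the shared part cannot be told apart, and the level of CD27 is uncertain. CD27-AS1 averaged 12.0 ± 1.19 CPM in EV and 14.6 ± 1.40 in SCML4 (SD, n = 3 each). The difference was 0.26, at a limma-trend adjusted p of 0.866. TAPBPL, which encodes the peptide-editing protein TAPBPR and overlaps the CD27 gene on the same strand with no shared exonic base, stood at 16.5, 14.0 and 18.4 CPM in EV and 20.2, 21.1 and 20.3 in SCML4. Its groups did not overlap, as in 6.29% of all genes in that direction, with a difference of 0.32 and a limma-trend adjusted p of 0.866.

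**Figure D3:**
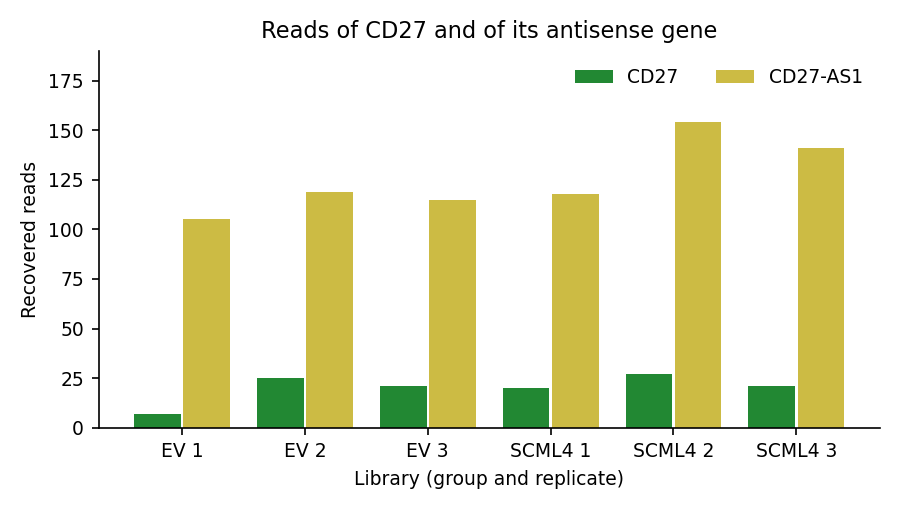
Recovered reads of CD27 (green) and of the antisense gene CD27-AS1 (yellow) in each of the 6 libraries. CD27-AS1 has 105 to 154 reads in every library, and CD27 has 7 in EV replicate 1 and 20 to 27 in the other 5.

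TNFRSF4, the OX40 receptor that sustains activated T cells, was detected at 41 to 76 reads in every library. Values were 4.98, 4.57 and 7.85 CPM in EV and 4.96, 7.26 and 5.14 in SCML4. EV replicate 3 and SCML4 replicate 2 were the high ones, at 136% and 125% of the mean of the 6 libraries, and the groups overlapped. The difference was 0.01 with a 95% interval of -0.45 to 0.48 and an adjusted limma-trend p of 0.996. Its RNA, with a GC content of 69.9%, is the richest in GC of the 10. With the correction for GC content and length the difference was -0.14.

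TNFRSF18 (GITR), the gene next to TNFRSF4 on chromosome 1, had 3 reads each in EV replicate 3 and SCML4 replicate 3, and none elsewhere. TNFRSF9 (4-1BB), an activation-induced receptor of cytotoxic T cells, had 1 read in EV replicate 1 and 0 in the other 5 libraries. Both were at or under the limit of 3 reads in every library, and no fold is given. Read numbers this small are the smallest that give whole reads and a whole implied length, and a multiple of them cannot be told apart. Within the same receptor family the 6 libraries thus held 331 reads of TNFRSF4 and 121 of CD27 against 6 of TNFRSF18 and 1 of TNFRSF9.

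CD40LG, the ligand by which helper T cells activate B cells and whose transcription in T cells is known to need calcium and NFAT, was detected in all libraries. The EV libraries held 154, 89 and 142 reads and the SCML4 libraries 110, 163 and 118, or 16.0, 9.92 and 14.7 CPM against 12.1, 15.8 and 13.2. EV replicate 2 was the lowest of the 6 and EV replicate 1 the highest, so that the EV values enclosed all 3 SCML4 values. Means were 13.5 ± 3.19 and 13.7 ± 1.87 CPM (SD, n = 3 each), a difference of 0.03 with a 95% interval of -0.35 to 0.42 and an adjusted limma-trend p of 0.984.

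TFRC, the transferrin receptor that imports iron for proliferating cells, was the most abundant member and the one with groups apart. The EV libraries held 4789, 4286 and 4621 reads and the SCML4 libraries 4285, 4321 and 3111. In CPM these were 497, 478 and 477 against 473, 418 and 347. All 3 SCML4 values lay below all 3 EV values, as in 5.36% of all genes in that direction, but SCML4 replicate 1 was within 5 CPM of EV replicate 3. The difference was -0.24 with a 95% interval of -0.45 to -0.03, an unadjusted p of 0.0277 and an adjusted p (limma-trend) of 0.866, so that it did not pass. Of all genes 1.93% were lower with SCML4 at an unadjusted p under 0.05. Over the 20 ways to split the libraries, the exact permutation p (two-sided) was 0.1, the smallest it can be. Without SCML4 replicate 3 the difference was -0.12 with an unadjusted p of 0.168, and without SCML4 replicate 1 it was -0.34 with an unadjusted p of 0.00386. TFRC RNA has a GC content of 41.5%. Its highest library, EV replicate 1, and its lowest, SCML4 replicate 3, had the GC coefficients furthest apart, -0.60 and 0.33. With the correction for GC content and length the difference was -0.20, with an unadjusted p of 0.0492 and an adjusted p of 0.845 (limma-trend). The part of GC content was not tested further. The SCML4 libraries spread over 62.8 CPM (SD) and the EV libraries over 11.3, and the spread within groups was 44.3 times the counting variance.

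The stability of TFRC RNA is known to depend on iron-responsive elements in its 3′ UTR, hairpins that iron regulatory proteins bind when iron is scarce. They are printed because they set TFRC apart from the other transcripts by sequence. A search of 19413 protein-coding 3′ UTRs of GENCODE 29 looked for the loop CAGTG and any base but G, closed by 5 base pairs, a bulged c and 2 further pairs. It found a match in 0.0773% of genes, and TFRC was the 1 gene with more than a single match, holding 4. Capitals mark the loop.
TFRC element 1, bases 939 to 959 after the stop codon: atcggaagCAGTGCcttccat
TFRC element 2, bases 1343 to 1363 after the stop codon: atcgggagCAGTGTcttccat
TFRC element 3, bases 1408 to 1428 after the stop codon: atcggagaCAGTGAtctccat
TFRC element 4, bases 1455 to 1475 after the stop codon: atcgggaaCAGTGTttcccat

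Of the other genes of iron handling none was called among 16 tested of 21 listed. Of the 16 differences 9 were positive, 56.2% against 52.4% of all genes, and the median was 0.01. FTH1, the ferritin heavy chain that stores iron, had the smallest unadjusted p of the list (0.0458, adjusted p = 0.866 in limma-trend), at 160, 307 and 333 CPM in EV and 413, 306 and 333 in SCML4. The low value was again EV replicate 1, and the remaining 5 libraries overlapped. IREB2, which encodes iron regulatory protein 2, stood at 230 ± 14.4 and 209 ± 6.59 CPM (SD, n = 3 each), with groups apart and a difference of -0.14. SLC11A2, an iron transporter, had a difference of -0.17, and FTL, the ferritin light chain and the most abundant gene of the list in CPM, one of 0.20. No unadjusted p of IREB2, SLC11A2 or FTL was under 0.05.

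CD38, the NAD hydrolase of activated lymphocytes and thymocytes, was abundant in both groups. The EV libraries held 1289, 1194 and 1059 reads and the SCML4 libraries 1065, 1370 and 1392, or 134, 133 and 109 CPM against 117, 133 and 155. The highest library was SCML4 replicate 3 and the lowest EV replicate 3, and the other 4 values overlapped. The difference was 0.10 with a 95% interval of -0.13 to 0.34 and an adjusted limma-trend p of 0.916, and without SCML4 replicate 3 it was -0.0015. SCML4 replicate 3 thus held the lowest TFRC and ICOS values and the highest CD38 value of the 6 libraries, with 0.447 CD38 reads per TFRC read against 0.229 to 0.317 in the others.

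**Figure D4:**
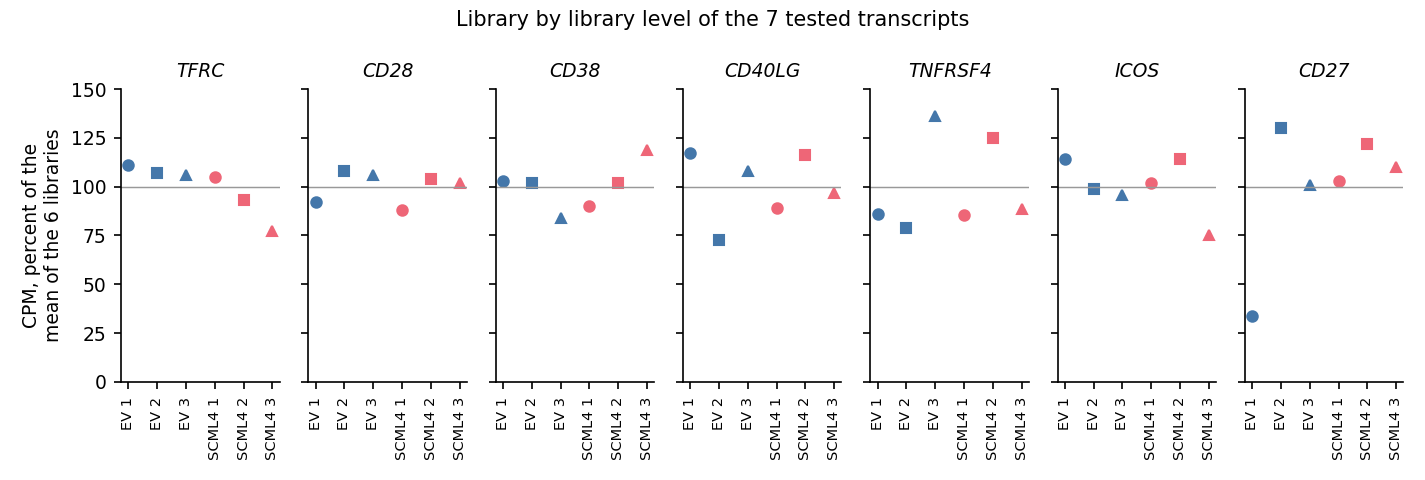
CPM of each of the 7 tested transcripts in each library as a percent of its mean over the 6 libraries (grey line at 100), blue for EV and red for SCML4. CD27 in EV replicate 1 is at 33.9%, and in SCML4 replicate 3 TFRC is at 77.5%, ICOS at 75.3% and CD38 at 119%.

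Among 20 tested genes of NAD metabolism and CD38 relatives (24 listed) none was called, with 12 positive differences and a median of 0.03. SIRT6, a NAD-dependent deacetylase, averaged 21.4 ± 1.56 CPM in EV and 26.8 ± 3.21 in SCML4 (SD, n = 3 each), with groups apart. The SIRT6 difference was 0.31, with an unadjusted p of 0.0281 and an adjusted limma-trend p of 0.866. NAMPT, the rate-limiting enzyme of NAD salvage, had a difference of -0.16 with groups apart, and NADK2, a mitochondrial NAD kinase, one of 0.13. PARP1, a NAD-consuming enzyme of DNA repair and the most abundant gene of the list in CPM, had a difference of -0.02.

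CD44, the hyaluronan receptor and a marker of antigen-experienced T cells, had 1 read in EV replicate 2, 1 in EV replicate 3 and 0 in EV replicate 1 and all SCML4 libraries. As for TNFRSF9, these are the smallest read numbers that fit, and a multiple of them cannot be told apart. Its antisense gene CD44-AS1 was at 0 in every library. Of 24 listed partners of CD44 18 were tested and none was called. Positive differences numbered 10 (55.6% against 52.4% of all genes), with a median of 0.02. The cytoskeletal linker gene MSN, at 981 ± 116 CPM in EV and 1081 ± 17.2 in SCML4 (SD, n = 3 each), was the most abundant of them. Its groups were apart, higher with SCML4. SRSF1, a splicing factor, had a difference of -0.21 with groups apart, an unadjusted p of 0.0345 and an adjusted limma-trend p of 0.866. ADAM10, a protease that sheds CD44, had a difference of -0.17 with groups apart, and SELPLG, a selectin ligand, one of 0.20 with overlapping groups. In MSN, SRSF1 and ADAM10, EV replicate 1 was the EV library furthest from the SCML4 values. MSN stood at 847, 1053 and 1043 CPM in EV and 1090, 1092 and 1061 in SCML4. SRSF1 stood at 463, 384 and 365 against 347, 354 and 344, and ADAM10 at 270, 225 and 213 against 204, 211 and 209. The part of GC content in these was not tested.

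Ligands of the members, and CD40, the receptor that CD40LG binds, were mostly near 0 reads in these T cells. Of 8 listed, TNFSF18 and CD40 were at 0 in every library, and CD80, CD86 and ICOSLG had 0 to 6 reads. The other 3 were tested and none was called. TNFSF4, the ligand of OX40, averaged 15.6 ± 1.41 CPM in EV and 18.0 ± 2.40 in SCML4 (SD, n = 3 each), TNFSF9, the ligand of 4-1BB, at 10.1 ± 2.60 and 9.54 ± 0.537, and CD70, the ligand of CD27, at 6.78 ± 0.331 and 6.61 ± 1.27. The 6 libraries thus held reads of TNFSF9, at 70 to 111 a library, with 1 read of its receptor in all, the smallest number that fits.

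In the signalling pathways downstream of the receptors 0 genes were called. For CD28 and ICOS signalling all 22 listed genes were tested, with 16 positive differences (72.7% against 52.4% of all genes) and a median of 0.03. VAV1, a guanine nucleotide exchange factor downstream of CD28, stood at 39.3, 44.0 and 53.2 CPM in EV and 54.3, 57.9 and 57.2 in SCML4, with groups apart, a difference of 0.31, and an adjusted limma-trend p of 0.866. INPP5D, which encodes the lipid phosphatase SHIP1, stood at 61.7, 62.7 and 63.4 CPM in EV and 44.8, 54.6 and 58.3 in SCML4, with groups apart in the other direction and a difference of -0.26. The unadjusted p-values of VAV1 and INPP5D were 0.014 and 0.0281, with an adjusted p of 0.866 each in limma-trend. FLNA, a filamin that binds CD28 and the most abundant of the list in CPM, had a difference of 0.16. For TRAF adaptors and non-canonical NF-κB all 19 were tested, with 11 positive differences (57.9%) and a median of 0.02. RELB, a NF-κB subunit, stood at 2.49, 5.46 and 6.51 CPM in EV and 6.07, 7.26 and 9.83 in SCML4, a difference of 0.63 with overlapping groups. The kinase gene CHUK had a difference of -0.27, the NF-κB inhibitor gene TNFAIP3 one of 0.26, and TRAF3, the most abundant of the list in CPM, one of 0.04. The unadjusted p-values of RELB, CHUK and TNFAIP3 were 0.0322, 0.0266 and 0.0331, with an adjusted p of 0.866 each in limma-trend.

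Related surface receptors were not called either. Of 17 other receptors of the CD28 and TNF receptor families 11 were tested. Positive differences numbered 7 (63.6% against 52.4% of all genes), with a median of 0.06. TNFRSF21, a death-domain receptor, stood at 57.2, 68.8 and 55.1 CPM in EV and 74.4, 73.6 and 79.5 in SCML4, and TNFRSF1A, the main TNF receptor, at 64.1, 60.8 and 71.4 against 78.0, 81.1 and 79.2. In both the groups were apart, with differences of 0.33 and 0.28, unadjusted p-values of 0.00501 and 0.00719 and an adjusted limma-trend p of 0.866 each. TNFRSF25, a further death-domain receptor, had a difference of -0.32 and overlapping groups. Of 24 other activation antigens 18 were tested, with 14 positive differences (77.8% against 52.4% of all genes) and a median of 0.11 against 0.01. The tetraspanin gene CD82 stood at 73.4, 84.2 and 77.3 CPM in EV and 84.6, 101 and 105 in SCML4, with groups apart. The CD82 difference was 0.30, with an unadjusted p of 0.00878 and an adjusted limma-trend p of 0.866. CD69, an early activation antigen, had a difference of 0.36 and CD5, a negative regulator of antigen receptor signalling, one of 0.14, both with groups apart. The unadjusted p-values of CD69 and CD5 were 0.026 and 0.0934, with an adjusted p of 0.866 each in limma-trend. CD47, the most abundant of that list in CPM, had a difference of -0.07. Over the 8 lists 12 of 127 tested genes had an unadjusted p under 0.05, or 9.45% against 5.27% of all genes. The lists were chosen with earlier results of these data known. Of the 12, 9 were positive and 3 negative, as were 473 and 273 of the 14160 genes, and 0 passed adjustment over all genes. List genes named with groups apart were mostly picked for a small p, and groups were apart in 11.6% of all genes. Apart higher and lower were 3 and 1 of 18 other activation antigens, 2 and 1 of 11 related receptors and 2 and 2 of 22 signalling genes. They were 0 and 1 of 16 iron genes, 1 and 1 of 20 NAD genes and 1 and 2 of 18 CD44 partners. For the 3 ligands and the 19 TRAF genes both were 0.

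**Figure D5:**
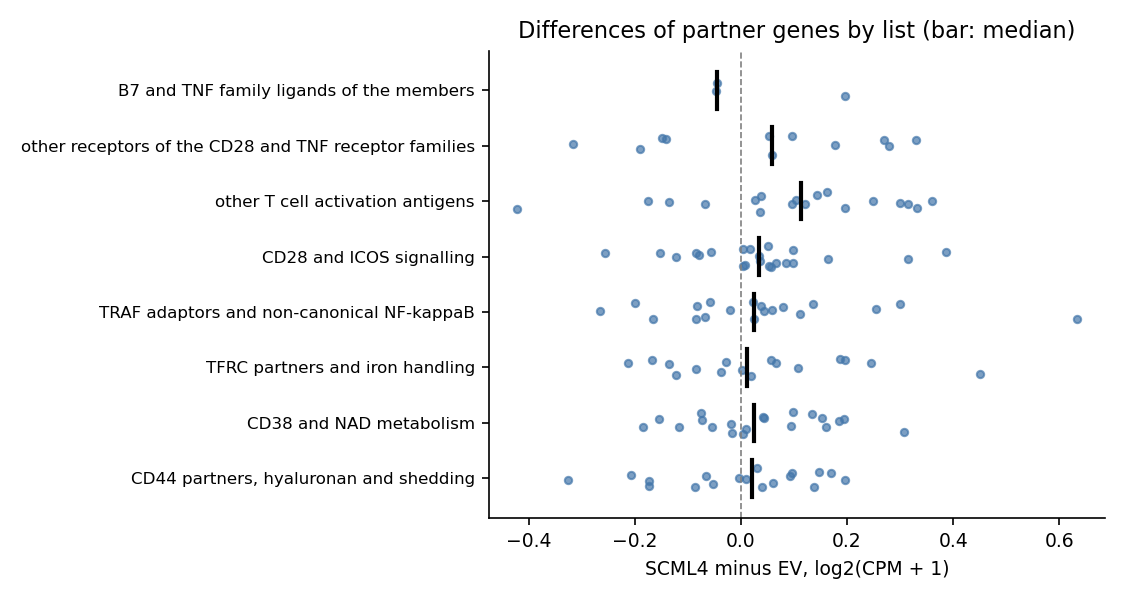
Difference SCML4 minus EV on log2(CPM + 1) of each tested gene (points) in the 8 lists of related genes, with the list median as a black bar and a dashed line at 0. Medians lie between -0.04 and 0.11, and no point passed the adjusted threshold.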

How the data were processed

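The deposited table holds FPKM, 1 column per library, per the file headers. Per the submitters' processing notes the tools were FastQC, STAR and SAMtools, with no versions, and the build was hg19. For the counting tool, annotation and strand setting the record is the same: not given in the sources used here. Libraries had been made from TRIzol RNA with a SMARTer mRNA-seq kit, per the labels' protocols.

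Within a gene, FPKM rise in steps of 1 read. Whole reads, library totals and implied lengths were worked out from these steps. All 23897 rows above 0 came out whole within 0.002 of a read. Near-whole reads were the rule for accepting a length, so that this is no separate check. A common divisor of a row's reads cannot be seen. Rows of the table held 99.63% to 99.65% of each total. In simulated data of 12000 genes 99.20% of those with 10 or more reads were recovered exactly. Implied lengths correlated with GENCODE 29 exonic lengths at a Spearman coefficient of 0.003 over 14117 genes, so no FPKM level is compared.

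The comparison was limma-trend (limma 3.58.1, R 4.3.3) on log2(CPM + 1) for genes averaging at least 10 reads, adjusted by Benjamini-Hochberg, at a threshold of 0.05. An alternative used log2(FPKM + 1) with a mean FPKM of at least 0.5. The fit was tested on simulated data. Members, lists and alternatives were chosen with earlier results of these data known. The genes named were SCML4, the members, genes overlapping them, the cell type markers and, from each list, the 3 of smallest unadjusted p and the 1 of highest CPM. CTLA4, named by position alone, was outside that rule, and 1 gene that the rule names is not reported here. Exonic lengths and GC content come from GENCODE 29 on GRCh38, not the submitters' build, and were known for 99.7% of tested genes. Promoters come from RefSeq on GRCh38.p14.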

Additional observations from a re-analysis of the deposited data

How the results depend on the processing

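Under 22 alternatives, of which limma-voom with library weights was chosen after seeing the data, 0 of the 10 members were called. TFRC kept a negative difference in all 22, from -0.34 to -0.12, with adjusted p-values of 0.316 to 1.00 and an unadjusted p under 0.05 in 18. The number of genes called, 1 on log2(CPM + 1), was 0 on log2(FPKM + 1), 2 with median-of-ratios scaling, 3 with quantile normalization, 3 with correction for GC content and length, 19 with library weights in limma-trend and 14 in limma-voom with library weights. Leaving out 1 library gave 1 to 14 genes, the 14 without EV replicate 1. On log2(FPKM + 1), the setting with 0 calls, the overexpressed SCML4 was thus not called either. In that setting 781 genes had an unadjusted p under 0.05 in limma-trend.

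With 1 library left out, differences ranged from -0.15 to 0.05 for ICOS, -0.03 to 0.53 for CD27, -0.16 to 0.16 for CD40LG, -0.14 to 0.22 for TNFRSF4 and -0.0015 to 0.20 for CD38. CD28 was 0.02 without SCML4 replicate 1. ICOS was 0.05 with library weights, 0.04 in limma-voom with library weights and 0.05 without SCML4 replicate 3. CD27 was -0.03 without EV replicate 1. CD40LG was -0.0056 under quantile normalization, -0.16 without EV replicate 2 and -0.06 without SCML4 replicate 2. TNFRSF4 was -0.0006 under quantile normalization, -0.14 with GC and length correction, -0.07 and -0.12 without EV replicates 1 and 2 and -0.14 without SCML4 replicate 2. CD38 was -0.0015 without SCML4 replicate 3. The cause was not tested.

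Replicate numbers are not stated to pair libraries, and deviations of same-numbered libraries correlated at -0.08, -0.20 and -0.05. With the replicate block 2 genes were called, and 6 with the replicate block and GC and length correction, where TNFRSF4 was -0.14. No sample correlated best with its own number. Depth limits the precision for ICOS, and the 3 untested members had too few reads to test.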
